A study of Homo sapiens with 6 samples.

Results

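The genes described here are 45 genes of the cell cycle and DNA replication, of 39739 gene rows listed for each library. They were chosen by symbol and fall into 20 genes that act around the G1/S transition and in DNA replication, 3 D-type cyclins and 22 genes of the G2 phase and mitosis. Transcriptomes were measured in HGC27, an established human gastric cancer cell line, as 3 HGC27-FN1 3′-UTR libraries and 3 HGC27-control libraries. In the first group the 3′-UTR of *FN1*, the fibronectin gene, was stably overexpressed by lentiviral infection, and per the study's methods the cells were collected as a puromycin-resistant population. What the control cells carried is not given in the sources used here. Nothing in the labels says that the replicates were separate cultures, so the p-values measure only the spread between these samples, which may be technical. All 45 genes had a row, and all 45 were among the 23299 genes tested.

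The cell cycle is driven by cyclins, which activate cyclin-dependent kinases (CDKs) in turn. D-type and E-type cyclins lead a cell from G1 into S phase, where E2F factors switch on the genes of DNA replication. Cyclins A and B with CDK1 then drive G2 and mitosis, and the genes of that phase are repressed earlier in the cycle by the DREAM complex and switched on later by B-MYB and FOXM1. High expression of both groups is a common feature of dividing tumor cells.

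Promoters of the phases differ in their short motifs. Late genes often carry the cell cycle genes homology region (CHR), searched here as TTTGAA or TTCGAA, and early genes often carry an E2F site, searched as TTTCGCGC, TTTGGCGC, TTTCCCGC or TTTGCCGC, each on either strand. In promoters from RefSeq (GRCh38.p14), which run from 250 bases before to 50 bases after a transcription start, the CHR letters were in 12 of 18 promoters of the G2/M genes, in 2 of 23 of the G1/S genes and in 16.4% of all 35116 promoters. The E2F letters were in 14 of 23 promoters of the G1/S genes, in 3 of 18 of the G2/M genes and in 3.31% of all promoters. CCAAT, the NF-Y box, was in 16 of 18 promoters of the G2/M genes, in 16 of 23 of the G1/S genes and in 34.6% of all. Promoters were matched for 16 of the 22 G2/M genes, 17 of the 20 G1/S genes and 1 of the 3 D-type cyclins. A match is a description of letters and not a bound site. The 8 stretches of 30 bases shown here are all upstream of a RefSeq transcription start and are written on the strand of the gene. That start can lie inside the gene span given below, as for *CDK1* and *CDT1*. The stretches show the different letters of the 2 phases, with the CHR match in capitals in the first 4 and the E2F match in capitals in the last 4.
CDK1, chr10:60778397-60778426, plus strand: ctgattggctgcTTTGAAagtctacgggct
CCNB2, chr15:59105105-59105134, plus strand: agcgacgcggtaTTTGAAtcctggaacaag
PLK1, chr16:23678848-23678877, plus strand: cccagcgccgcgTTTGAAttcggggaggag
BUB1B, chr15:40161034-40161063, plus strand: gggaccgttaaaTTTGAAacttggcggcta
CDT1, chr16:88803743-88803772, plus strand: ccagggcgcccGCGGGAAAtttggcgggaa
PCNA, chr20:5126663-5126692, minus strand: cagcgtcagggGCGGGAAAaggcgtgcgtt
GINS2, chr16:85688967-85688996, minus strand: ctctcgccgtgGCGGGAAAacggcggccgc
E2F2, chr1:23531257-23531286, minus strand: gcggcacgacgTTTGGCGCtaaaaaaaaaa

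The unit of the values is RPKM, which scales the reads of a gene to 1000 bases of its exons and to 1000000 reads assigned to genes. The HGC27-FN1 3′-UTR libraries held 16357085 to 29202046 such reads and the HGC27-control libraries 22332816 to 37037532, and each of the 45 genes had at least 233 reads in every library. *FN1* itself, counted over its whole transcript, had an RPKM of 0.777, 0.745 and 0.819 in HGC27-FN1 3′-UTR cells against 0.543, 0.474 and 0.532 in HGC27-control cells. Of 6 epithelial markers 5 were upregulated at an adjusted p under 0.05, and their summed RPKM was 18.4 to 27.3 against 2.93 to 3.30. Of 4 fibroblast-type markers 2 were higher (summed RPKM 57.6 to 59.2 against 34.8 to 43.9), while the mesenchymal marker *VIM* had a mean RPKM of 304 and 303. The leukocyte marker *PTPRC* was at a mean of 0.00952 and 0.0091 RPKM, and the endothelial markers were at or near 0. The part of the epithelial and fibroblast-type shift in the cell cycle values was not tested.

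Across the 45 genes the differences were small. With limma on log2(RPKM + 0.1), which slightly understates the change of genes with low RPKM, 8 genes were higher and 2 lower than in the control libraries at a Benjamini-Hochberg adjusted p under 0.05, two-sided. Among all 23299 genes tested, 5.62% were higher and 7.36% lower by the same rule. Under median-ratio scaling, which moved the median of all genes from -0.04 to 0.00, the calls were 1696 higher and 1331 lower in place of 1310 and 1715, and 12 higher and 2 lower among the 45. Among the 14652 genes with a mean RPKM of at least 1, a level that all 45 passed, the shares were 7.02% and 10.3%. By limma, and by limma's voom on reads recovered from the RPKM, 0 of the 45 met the study's criteria of an absolute log2 fold change over 1 and an unadjusted P under 0.05, which 1.65% of all genes met as higher and 0.815% as lower. At an unadjusted p under 0.05, 13 of the 45 were higher and 3 lower (16 in all, 35.6%), against 12% higher and 17.6% lower of all genes (29.6% in all). The 3 libraries of HGC27-FN1 3′-UTR cells were all above the 3 control libraries for 14 of the 45 genes and all below them for 4, against 14.3% and 21.7% of all genes tested.

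The intervals were narrow for most of the 45 genes. They reflect only the spread between these samples and leave out shifts from the choice of scaling. The coefficient of variation within a group of 3 had a median of 3.26% over the 45 genes, and the 95% confidence interval of the log2 fold change had a median half-width of 0.10. For 26 of the 45 genes the whole interval lay between -0.2 and 0.2, and for 44 it lay between -0.5 and 0.5, the exception being *CENPE*.

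**Figure D1:**
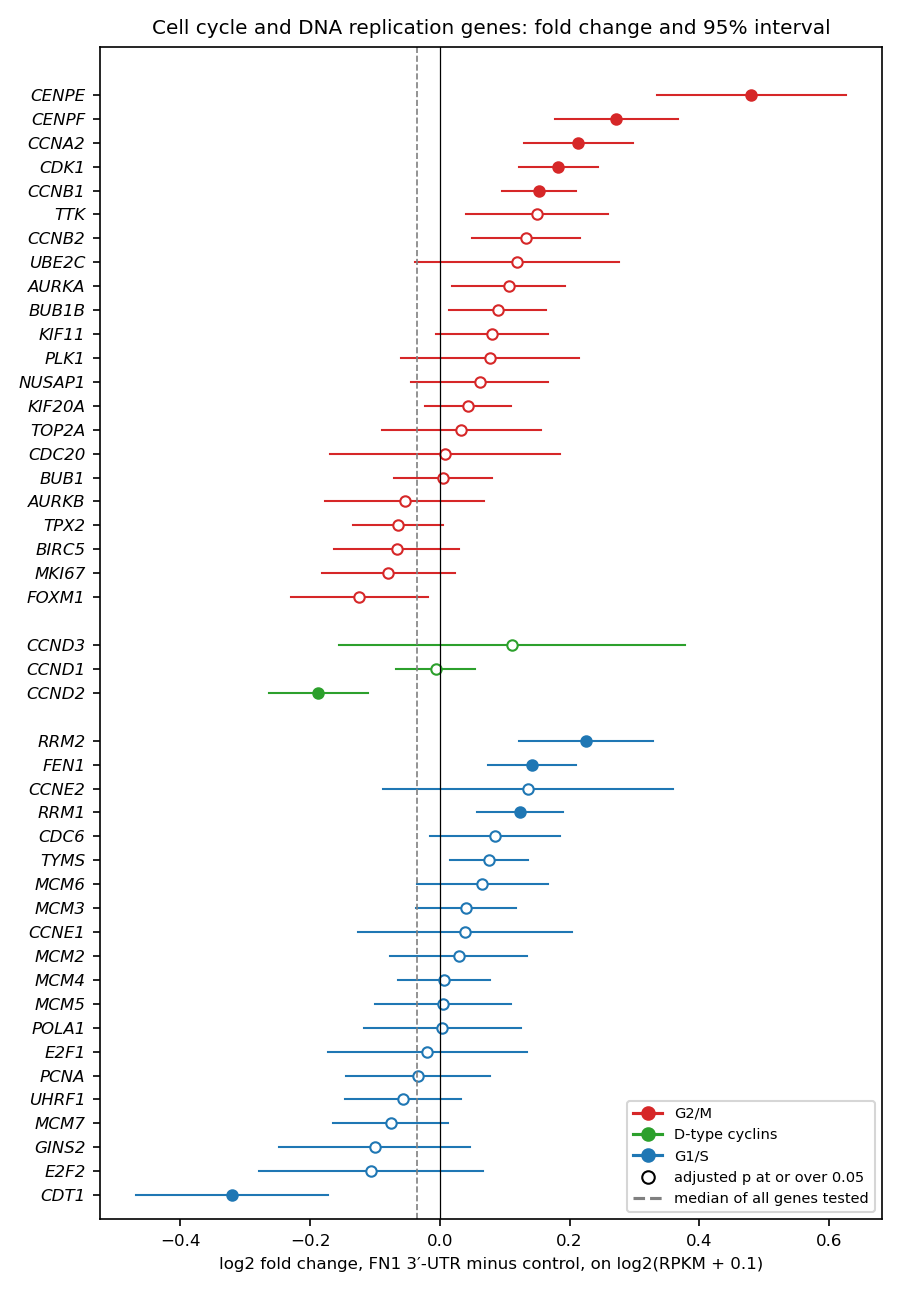
Log2 fold change of the 45 genes, HGC27-FN1 3′-UTR minus HGC27-control, with points for the limma estimate and bars for its 95% confidence interval, filled where the adjusted p was under 0.05. G2/M genes (red) reach from *FOXM1* at -0.12 to *CENPE* at 0.48, G1/S genes (blue) from *CDT1* at -0.32 to *RRM2* at 0.23, and the dashed line is the median of all genes tested, -0.04.

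The 22 G2/M genes are mostly parts of the mitotic machinery. At an adjusted p under 0.05 by limma, 5 of them were upregulated (22.7% of the list) and 0 downregulated, against 5.62% and 7.36% of all genes. At an unadjusted p under 0.05, 9 were higher and 1 lower, against 12% and 17.6% of all genes. With voom, 6 of the 22 were higher and 1 lower, against 8.76% higher and 13.2% lower of all genes. Their median log2 fold change was 0.08, against -0.04 over all genes tested, and 17 of the 22 had a fold change above 0. The 5 upregulated genes were the cyclins *CCNA2* and *CCNB1*, their kinase *CDK1*, and the kinetochore genes *CENPE* and *CENPF*.

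*CENPE* encodes a kinesin motor that carries chromosomes to the spindle equator (chr4:103105806-103198409, minus strand). Its RPKM was 9.58, 10.3 and 9.23 in HGC27-FN1 3′-UTR cells and 7.38, 6.80 and 6.58 in HGC27-control cells. Each overexpressing library was above each control library, and the log2 fold change was 0.48 (SE 0.06, adjusted p = 0.00689 by limma), a mean 40.0% higher. *CENPF*, a large kinetochore and nuclear matrix protein (chr1:214603195-214664588, plus strand), was at 47.8, 47.8 and 44.7 against 39.9, 38.6 and 37.6 RPKM. The groups did not overlap, and the mean was 20.9% higher (log2 fold change 0.27, SE 0.04, limma adjusted p = 0.0102). *CENPE* passed the threshold in each of the 15 other settings and *CENPF* in 14 of 15, the exception being the fit without control replicate 2, where its limma adjusted p was 0.05 after rounding.

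The cyclins and their kinase moved by smaller steps but varied little between replicates. *CDK1*, the kinase of mitotic entry (chr10:60778331-60794852, plus strand), was at 26.7, 26.5 and 26.5 RPKM against 23.1, 23.6 and 23.5. The SD in HGC27-FN1 3′-UTR cells was 0.0944 RPKM, and the log2 fold change was 0.18 (SE 0.03, limma adjusted p = 0.00915). *CCNB1*, cyclin B1, which activates *CDK1* at mitosis (chr5:69167010-69178245, plus strand), was at 74.3, 74.6 and 74.4 RPKM against 66.3, 66.6 and 67.9. It was 11.2% higher in mean (log2 fold change 0.15, SE 0.02, limma adjusted p = 0.0128), with no overlap of the groups. *CCNA2*, cyclin A2, which acts in S phase and G2 (chr4:121816444-121823933, minus strand), was at 32.4, 32.2 and 31.8 RPKM against 26.6, 28.0 and 28.6. Its mean was 15.9% higher (log2 fold change 0.21, SE 0.03, limma adjusted p = 0.0145), again without overlap of the groups. The gene *EXOSC9* overlaps the span of *CCNA2* on the opposite strand and was listed at a mean of 17.2 RPKM. Of the 15 other settings, *CDK1* passed in 13 and *CCNA2* and *CCNB1* in 10. All 3 were lost with no trend in the prior variance (limma adjusted p = 0.0506, 0.0547 and 0.0767) and with the replicate block (0.0511, 0.0583 and 0.0582). With 1 library left out, *CDK1* passed in each of 6 fits and *CCNA2* and *CCNB1* in 3 of 6. Both cyclins missed the threshold without FN1 3′-UTR replicate 1 (limma adjusted p = 0.0578 and 0.0531), without FN1 3′-UTR replicate 2 (0.0524 and 0.0516) and without control replicate 2 (0.0565 and 0.0652).

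The other 17 G2/M genes did not pass the test, and their log2 fold changes lay between -0.12 and 0.15. *MKI67*, which encodes the proliferation marker Ki-67, was at 57.8, 57.3 and 57.4 RPKM in HGC27-FN1 3′-UTR cells and at 63.8, 61.4 and 57.3 in HGC27-control cells. The control values spread more widely (SD 3.28 against 0.258) and reached down to the level of the overexpressing cells, so the groups overlapped (log2 fold change -0.08, SE 0.04, limma adjusted p = 0.273). *FOXM1*, a transcription factor of the G2/M genes, was at 27.3, 25.9 and 27.7 against 28.6, 28.8 and 30.8 RPKM. All 3 overexpressing libraries were below the control libraries, but the difference did not pass (log2 fold change -0.12, SE 0.04, limma adjusted p = 0.116). Of the 15 other settings it passed only with voom on the recovered reads (adjusted p = 0.0301).

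Among the remaining mitotic genes, those closest to the threshold lay above the control. *CCNB2*, cyclin B2, had a log2 fold change of 0.13 (limma adjusted p = 0.0557), with no overlap between the groups. *TTK*, the spindle checkpoint kinase, was at 0.15 (limma adjusted p = 0.0802), *AURKA*, the centrosomal Aurora kinase, at 0.11 (0.107) and *BUB1B*, a checkpoint component, at 0.09 (0.113), each with no overlap between the groups. The Polo-like kinase *PLK1* at 0.08, the spindle motor *KIF11* at 0.08, the spindle protein *NUSAP1* at 0.06, the motor *KIF20A* at 0.04 and the topoisomerase *TOP2A* at 0.03 were nearer to 0. The ubiquitin-conjugating enzyme *UBE2C* was at 0.12, with overlapping groups. The checkpoint kinase *BUB1* and the anaphase activator *CDC20* had log2 fold changes within 0.01 of 0. On the other side of 0 were the Aurora kinase *AURKB* at -0.05, the spindle assembly factor *TPX2* at -0.06 and the survivin gene *BIRC5* at -0.07. *TPX2*, below the control, and *KIF20A*, above it, also had no overlap between the groups. Of the 22 G2/M genes, 10 lay wholly above the control libraries and 2 wholly below, against 14.3% and 21.7% of all genes tested.

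**Figure D2:**
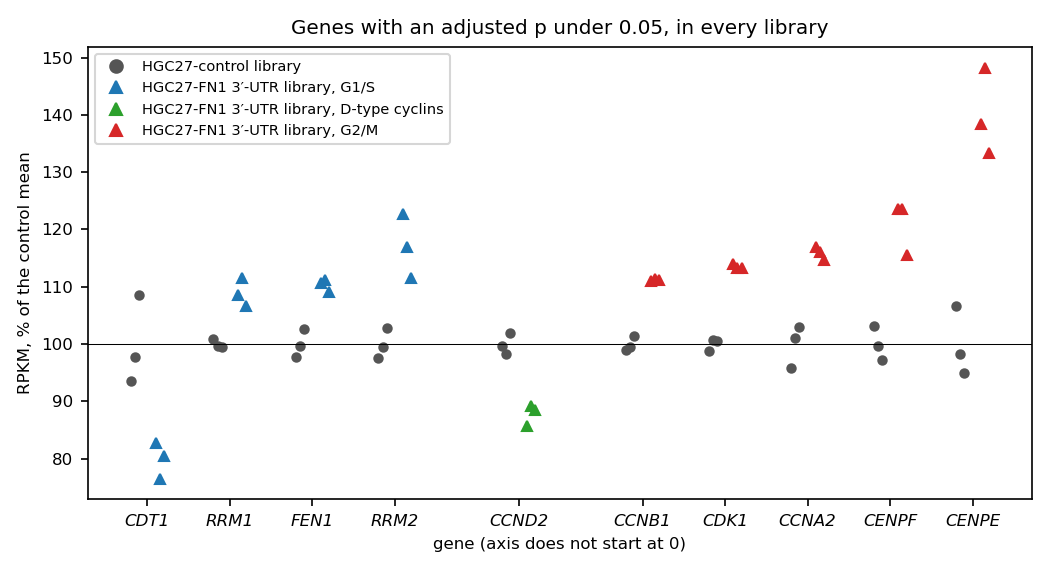
RPKM in each of the 6 libraries as a percentage of the control mean (y axis) for the 10 genes with an adjusted p under 0.05 (x axis), with circles for HGC27-control and triangles for HGC27-FN1 3′-UTR libraries. The triangles and circles do not overlap for any of the 10, and *CENPE* stands farthest from its control, at a mean 40.0% higher.

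The 20 G1/S and replication genes lay on both sides of their control levels. Their median log2 fold change was 0.02, with 13 of 20 above 0. At an adjusted p under 0.05 by limma, 3 of the 20 (15%) were upregulated and 1 (5%) downregulated. Over all genes tested these shares were 5.62% and 7.36%. The 3 upregulated genes were *RRM1* and *RRM2*, the subunits of ribonucleotide reductase, which makes deoxyribonucleotides, and *FEN1*, the flap endonuclease of lagging-strand synthesis. The downregulated gene was *CDT1*, which loads the MCM helicase at replication origins.

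*RRM2*, the small and cell cycle-regulated subunit (chr2:10122328-10131419, plus strand), was at 34.7, 33.1 and 31.6 RPKM in HGC27-FN1 3′-UTR cells and at 27.7, 28.2 and 29.1 in HGC27-control cells. The groups did not overlap (log2 fold change 0.23, SE 0.04, limma adjusted p = 0.0226). *RRM1*, the large subunit (chr11:4094707-4138876, plus strand), was at 63.7, 65.5 and 62.6 against 59.2, 58.5 and 58.4 RPKM, and *FEN1* (chr11:61792637-61797244, plus strand) at 72.0, 72.3 and 71.0 against 63.6, 64.8 and 66.7. Both were higher in all 3 overexpressing libraries, *RRM1* by 8.95% in mean (log2 fold change 0.12, SE 0.03, limma adjusted p = 0.0352) and *FEN1* by 10.4% (log2 fold change 0.14, SE 0.03, limma adjusted p = 0.0249). On the opposite strand within the span of *RRM1* lies the antisense gene *RRM1-AS1*, listed at a mean of 171 RPKM, and *FEN1* lies within the span of *FADS2* on the same strand. The strand setting of the counting is not given in the sources used here, so reads of *RRM1* and its antisense partner may not be fully separated.

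*CDT1* (chr16:88803213-88809258, plus strand) was at 18.6, 17.2 and 18.1 RPKM against 21.0, 21.98 and 24.4. Its mean differed by -20.1% from the control (log2 fold change -0.32, SE 0.06, limma adjusted p = 0.0229), and each overexpressing library was below each control library. With 1 library left out, these 4 G1/S genes passed in fewer fits than the 5 upregulated G2/M genes. *RRM1* passed in 0 of 6 such fits (limma adjusted p from 0.0583 without FN1 3′-UTR replicate 3 to 0.123 without control replicate 2) and *FEN1* in 1 of 6, that without control replicate 3 (0.0331). *RRM2* passed in 2 of 6, without FN1 3′-UTR replicate 3 (0.0312) and without control replicate 3 (0.0443). *CDT1* passed in 2 of 6, without control replicate 1 (0.0302) and without control replicate 3 (0.0357). All 4 were also lost with no trend in the prior variance and with the replicate block.

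The MCM2-7 helicase, the motor that unwinds DNA at the fork, was close to its control level in all 6 subunits. The log2 fold changes of *MCM2*, *MCM3*, *MCM4*, *MCM5*, *MCM6* and *MCM7* were 0.03, 0.04, 0.01, 0.00, 0.07 and -0.08, and the groups overlapped for each. *MCM2*, for example, was at 40.8, 37.4 and 38.9 RPKM against 37.0, 38.1 and 39.7 (95% interval of the log2 fold change -0.08 to 0.13, limma adjusted p = 0.720). *PCNA*, the sliding clamp of the replicative polymerases, was at 63.3, 58.9 and 59.5 against 58.8, 62.6 and 64.5 RPKM (log2 fold change -0.03, SE 0.05, limma adjusted p = 0.687). Its groups overlapped almost entirely.

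The drivers of S phase entry also lay near their control levels. *CCNE1*, cyclin E1, was at 5.59, 5.23 and 5.09 RPKM against 4.72, 5.36 and 5.42 (log2 fold change 0.04, 95% interval -0.13 to 0.20, limma adjusted p = 0.763). *E2F1*, the activator of replication genes, was at 9.70, 8.90 and 9.33 against 8.73, 10.1 and 9.47 (log2 fold change -0.02, 95% interval -0.17 to 0.13, limma adjusted p = 0.880). For both genes the groups overlapped over most of their range. *CCNE2*, cyclin E2, was at a log2 fold change of 0.14 with an interval from -0.09 to 0.36, and *E2F2* at -0.11 with an interval from -0.28 to 0.07. These low genes had the widest intervals of the list. Of the rest, the licensing factor *CDC6* was at 0.09, the thymidylate synthase *TYMS* at 0.08 without overlap of the groups (limma adjusted p = 0.0988), the polymerase subunit *POLA1* at 0.00, the DNA methylation factor *UHRF1* at -0.06 and the helicase subunit *GINS2* at -0.10.

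Of the D-type cyclins, which link growth signals to CDK4 and CDK6, 1 of 3 differed. *CCND2* (chr12:4273772-4305350, plus strand) was at 16.7, 17.4 and 17.2 RPKM in HGC27-FN1 3′-UTR cells and at 19.4, 19.1 and 19.9 in HGC27-control cells. It was lower in all 3 libraries (log2 fold change -0.19, SE 0.03, limma adjusted p = 0.0160), and it passed in 4 of 6 fits with 1 library left out, missing the threshold without FN1 3′-UTR replicate 1 (0.0589) and without control replicate 2 (0.0556). It was also lost with no trend in the prior variance (0.0602) and with the replicate block (0.0595). An antisense gene, *CCND2-AS1*, lies within its span and was listed at a mean of 4.14 RPKM. *CCND1*, the most abundant of the 3, was at 34.4, 34.2 and 34.4 RPKM against 33.9, 34.7 and 34.8 (log2 fold change -0.01, 95% interval -0.07 to 0.05, limma adjusted p = 0.898). With the GC trend of each library removed, as described below, its estimate was 0.06, above that interval. *CCND3* was at 3.17, 2.67 and 3.12 against 2.46, 2.67 and 3.16 RPKM, with overlapping groups and a wide interval from -0.16 to 0.38 (log2 fold change 0.11, limma adjusted p = 0.567).

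The phases were then compared within each library, as the mean log2(RPKM + 0.1) of the 22 G2/M genes minus that of the 20 G1/S genes. The difference was 0.35, 0.37 and 0.38 in HGC27-FN1 3′-UTR replicates 1 to 3 and 0.33, 0.28 and 0.28 in HGC27-control replicates 1 to 3. All 3 overexpressing libraries were above all 3 control libraries, and the group means, 0.37 ± 0.01 and 0.30 ± 0.03 (SD, n = 3), differed by 0.07. The mean of the G2/M genes was 5.16 ± 0.01 against 5.08 ± 0.01 without overlap, whereas the mean of the G1/S genes was 4.80 ± 0.03 against 4.78 ± 0.04 with overlap. No p-value is given for these scores, since the genes were chosen with results of these data known. The shift held in direction with any 1 of the 22 G2/M genes left out (0.05 without *CENPE* to 0.08 without *FOXM1*), without overlap of the groups. With all called G1/S and G2/M genes left out, it was 0.02 and the groups overlapped. Those genes were picked by their difference between the same groups, so this value does not test the shift. In RNA from a whole culture, more cells in G2 or mitosis and more of these transcripts per cell cannot be told apart.

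**Figure D3:**
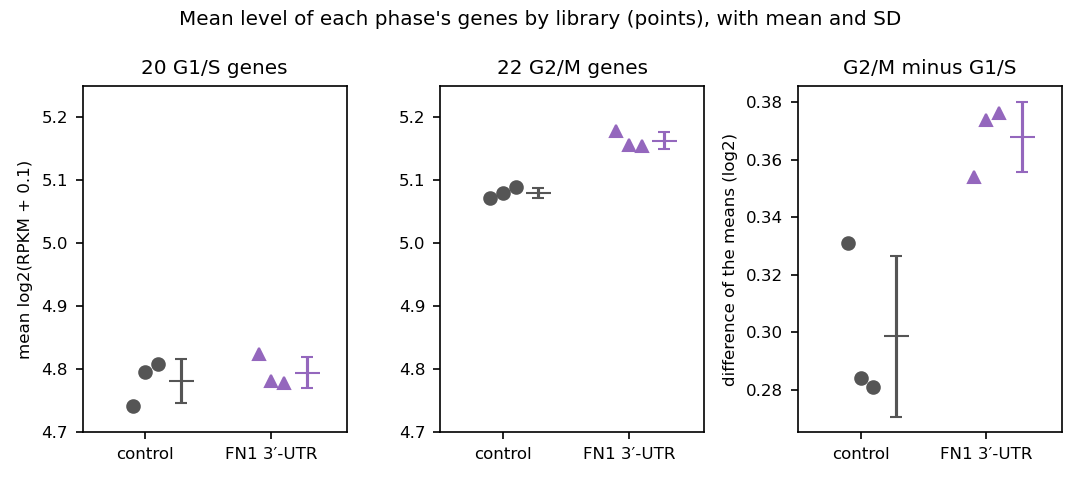
Mean log2(RPKM + 0.1) of the 20 G1/S genes (left), of the 22 G2/M genes (middle) and their difference (right) in each library, with points for libraries and bars for the mean and SD of 3. The G2/M means of the HGC27-FN1 3′-UTR libraries lie above the control (5.16 against 5.08), the G1/S means overlap, and the axes do not start at 0.

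The fold changes also moved with base composition. Among the 11918 genes with a mean RPKM of at least 1 and a known GC content of the longest transcript, split by it into 4 groups of equal size, the median log2 fold change was 0.02 in the group with the lowest GC content and -0.03, -0.05 and -0.07 in the following groups. The libraries of a group differed in this. At the highest GC content, the median log2 deviation from each gene's mean was -0.03, -0.06 and -0.01 in HGC27-FN1 3′-UTR replicates 1 to 3. In HGC27-control replicates 1 to 3 it was -0.03, 0.05 and 0.08, so control replicate 1 lay within the range of the overexpressing libraries. Across the 45 genes, GC content and log2 fold change had a Spearman correlation of -0.56 and a Pearson correlation of -0.60. Over the 11918 genes the correlations were weaker, at -0.18 and -0.11. Genes share their 6 libraries and are not independent replicates. The median GC content was 43.8% for the G2/M genes and 50.7% for the G1/S genes, and the correlation was also negative within each list (Spearman -0.63 and -0.52). *CENPE* had 35.3% GC and *CDT1* 64.9%. Exon length showed no such relation (Spearman -0.08 over the 45 genes).

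With the GC trend of each library removed, a step chosen after the data were examined, all 10 calls held, and 12 of the 45 genes were higher and 2 lower, against 11.0% and 9.34% of the 17217 genes with a GC value. Without the centring, adjustment over these 17217 genes alone gave 9 higher and 2 lower of the 45, against 1222 higher and 1664 lower of the 17217. The fold changes of the 45 genes still moved with GC content after the centring (Spearman -0.36, Pearson -0.45). The medians then were 0.10 for the G2/M genes and 0.07 for the G1/S genes, in place of 0.08 and 0.02. The median of all genes in the fit also moved, to -0.01 from -0.04. The phase difference between the groups was 0.05 in place of 0.07. The difference was 0.34, 0.35 and 0.38 in the HGC27-FN1 3′-UTR libraries against 0.32, 0.30 and 0.31 in the HGC27-control libraries, without overlap.

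**Figure D4:**
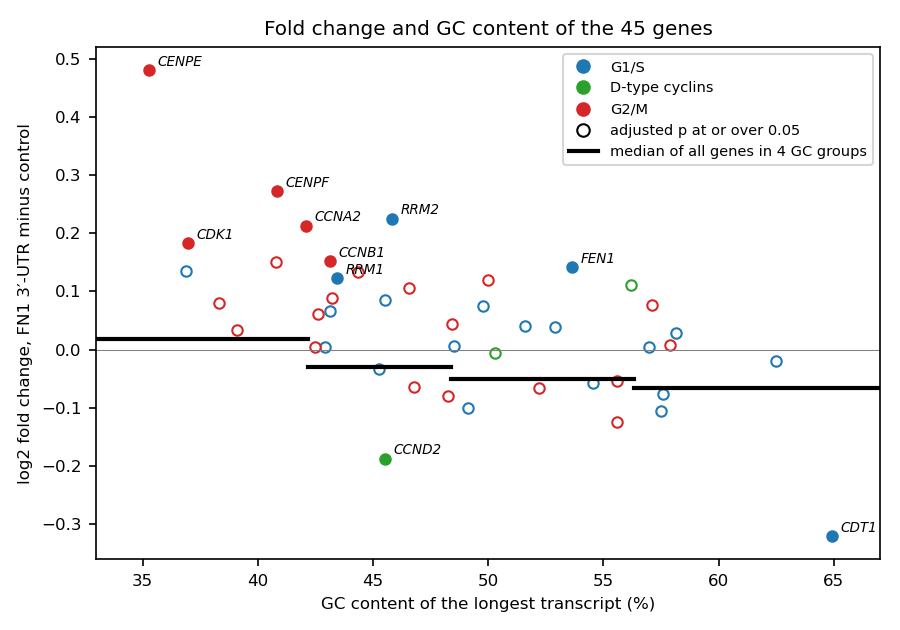
Log2 fold change (y axis) against GC content of the longest transcript in percent (x axis) for the 45 genes, filled where the adjusted p was under 0.05, with black lines for the median of all genes in each of 4 GC groups. The genes lie higher at low GC content, from *CENPE* at 35.3% to *CDT1* at 64.9%, and the black lines run from 0.02 to -0.07.

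Further genes of the same pathways were read from the same fit. Of 40 further mitotic genes, 13 were upregulated and 2 downregulated at an adjusted p under 0.05 by limma (32.5% and 5%). Over all genes tested these shares were 5.62% and 7.36%. The median log2 fold change of the 40 genes was 0.08. The largest was *ASPM*, a spindle pole protein, at 15.5, 15.7 and 14.8 RPKM against 12.2, 11.8 and 11.6 (log2 fold change 0.37, SE 0.04, limma adjusted p = 0.00402). *KIF18A*, a kinesin that limits chromosome movement, was at 6.36, 6.92 and 6.54 against 5.18, 5.59 and 5.22 RPKM (log2 fold change 0.31, limma adjusted p = 0.0163). *MAD2L1*, a spindle checkpoint protein, was at 7.69, 7.74 and 8.06 against 6.30, 6.19 and 6.74 RPKM (log2 fold change 0.29, limma adjusted p = 0.0146). The groups overlapped for none of these 3 genes, and *ASPM* passed in each of the 15 other settings and *KIF18A* and *MAD2L1* in 13. *KIF18A* missed the threshold without FN1 3′-UTR replicate 2 or control replicate 3 and *MAD2L1* without FN1 3′-UTR replicate 3 or control replicate 2, with adjusted p-values of up to 0.0532 and 0.0621. The others were the phosphatase *CDC25B*, the kinesins *KIF23*, *KIF2C* and *KIF14*, the spindle and cytokinesis genes *DLGAP5* and *ECT2*, the kinetochore gene *NUF2* and the condensin genes *NCAPH*, *SMC2* and *SMC4*. The 2 downregulated genes, the chromokinesin *KIF4A* (-0.16) and the cytokinesis gene *RACGAP1* (-0.15), act in the same phase. Without 1 library, 4 to 10 of the 40 were called higher, with 4 without FN1 3′-UTR replicate 2 and 4 without control replicate 2. Over all genes, 501 to 927 were called higher in these fits, in place of 1310.

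Of 40 further replication genes, 1 was upregulated and 5 downregulated (2.5% and 12.5%). The shares were 5.62% and 7.36% of all genes tested, and 7.02% and 10.3% of those with a mean RPKM of at least 1. The median log2 fold change of the 40 genes was -0.03, close to that of all genes tested. *GINS4*, a helicase subunit, was at 6.30, 6.34 and 6.54 RPKM against 7.03, 7.15 and 7.26 (log2 fold change -0.16, limma adjusted p = 0.0403), and *POLD3*, a subunit of polymerase delta, at 10.2, 10.4 and 10.0 against 11.4, 11.6 and 11.0 (log2 fold change -0.15, limma adjusted p = 0.0458). *MCM10*, *RPA2* and *TIMELESS* were lower by log2 fold changes of -0.12, -0.13 and -0.13. *TIPIN*, whose product binds that of *TIMELESS* at the fork, was higher, at 20.9, 20.2 and 19.4 against 18.2, 18.0 and 17.7 RPKM (log2 fold change 0.16, limma adjusted p = 0.0356). The groups overlapped for none of these 6 genes. All 5 downward calls were lost with any 1 of the 6 libraries left out (0 called in each fit) and under median-ratio scaling, which also left 0. Over all genes, 470 to 1015 were called lower with 1 library left out and 1331 under median-ratio scaling, in place of 1715.

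**Figure D5:**
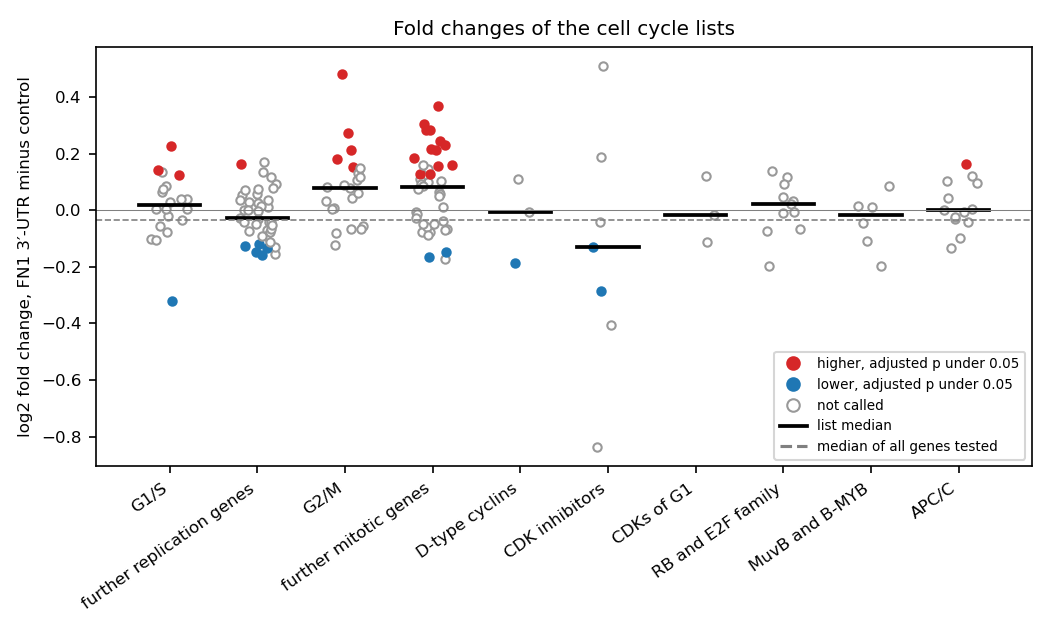
Log2 fold change of each gene (points, y axis) in the G1/S, G2/M and D-type cyclin lists and in the further lists of the cell cycle (x axis), coloured where the adjusted p was under 0.05, with black lines for list medians. The G2/M and further mitotic lists have a median of 0.08, and the dashed line is the median of all genes tested, -0.04.

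CDK inhibitors are the brakes of the cycle. Of 7 such genes, 0 were upregulated and 2 downregulated by limma, with 1 higher and 4 lower at an unadjusted p under 0.05, and with voom 1 was higher and 4 lower. Over all genes these shares were 5.62% and 7.36% by limma, 12% and 17.6% at an unadjusted p under 0.05, and 8.76% and 13.2% with voom. *CDKN2C*, p18, an inhibitor of CDK4 and CDK6, was at 27.1, 28.7 and 28.1 RPKM in HGC27-FN1 3′-UTR cells and at 32.7, 34.96 and 34.6 in HGC27-control cells (log2 fold change -0.28, SE 0.04, limma adjusted p = 0.00831). *CDKN1B*, p27, was at 14.7, 14.8 and 14.3 against 15.8, 15.9 and 16.3 RPKM (log2 fold change -0.13, limma adjusted p = 0.0451). Both were lower in all 3 libraries. *CDKN2C* passed in each of the 15 other settings, but *CDKN1B* in 4 of 15, and it was lost, among others, under median-ratio scaling (0.0987), GC centring (0.0771), the replicate block (0.120) and with any 1 library left out. *CDKN1A*, p21, which is induced by p53, was low, at 0.982, 0.967 and 1.20 against 0.558, 0.766 and 0.814 RPKM, and did not pass (log2 fold change 0.51, SE 0.16, limma adjusted p = 0.0896) although the groups did not overlap. It was the 1 gene of the list called higher with voom. *CDKN2D*, p19, was at 3.42, 2.51 and 2.78 against 3.60, 3.95 and 3.99 RPKM (log2 fold change -0.41, limma adjusted p = 0.0691, 0.00741 with voom). *CDKN1C*, p57, was covered by 1 to 21 reads a library, at 0.0236, 0.111 and 0.132 against 0.242, 0.264 and 0.177 RPKM (log2 fold change -0.84, limma adjusted p = 0.124, and -1.28 and 0.0446 with voom). Neither had overlapping groups, and both were named after their values were seen. *CDKN2A*, which encodes p16 and p14ARF, was at 31.8, 29.9 and 32.8 against 30.8, 32.0 and 34.6 RPKM, with overlapping groups (log2 fold change -0.04, limma adjusted p = 0.675).

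Regulators of the cycle's transcription programs were also read. By limma 0 of 3 CDKs of G1, 0 of 11 genes of the RB and E2F family and 0 of 6 genes of the MuvB core and B-MYB passed. Over all genes 5.62% passed as higher and 7.36% as lower. At an unadjusted p under 0.05 were 0, 2 (18.2%) and 0 of them, against 29.6% of all genes. With voom 0, 1 and 1 passed, *E2F8* and the B-MYB gene *MYBL2*, both lower, against 8.76% higher and 13.2% lower of all genes. With an adjusted p of 0.0506, the repressor *E2F8* was nearest to the threshold of these (log2 fold change -0.20). Of 13 genes of the anaphase-promoting complex, 1 was upregulated (7.69%, against 5.62% of all genes tested). This was *ANAPC13*, at 13.9, 14.4 and 13.5 against 12.1, 12.6 and 12.6 RPKM (log2 fold change 0.16, limma adjusted p = 0.0368). Its call was lost with any 1 library left out.

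The promoter letters were also set beside the fold changes. Of the 11 G2/M genes with a CHR match, 2 were upregulated and the median log2 fold change was 0.08. Of the 5 with a RefSeq promoter and no CHR match, 3 were upregulated and the median was 0.15. Among the G1/S genes, the 13 with an E2F match held the downregulated *CDT1* and 0 of the 3 upregulated genes (median -0.02), and the 4 without one held *RRM1*, *RRM2* and *FEN1* (median 0.13). These are counts over few promoters, and the letters may lie outside the windows read.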

How the data were processed

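RNA-seq of 3 HGC27-FN1 3′-UTR and 3 HGC27-control libraries was analysed from deposited RPKM tables, 1 per library, in which the authors gave RPKM per gene with its GRCh38 coordinates and exon length. The submitters' processing notes name Trimmomatic 0.36, STAR 2.5.3a and featureCounts of Subread 1.5.1, and a stranded mRNA library kit was used. The annotation release and strand setting of the counting are not given in the sources used here. Chromosome, start and end equalled GENCODE release 29 for 44 of the 45 genes. RPKM times length gave whole reads for 100% of values above 0 (tolerance 0.05), so depth was recovered, and a floor of 3 reads lay at 0.081 to 0.183 per 1000000 reads, for counting error only.

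Groups and replicate numbers came from the sample labels. Genes that reached 0.1 RPKM in a minimum of 3 libraries were fitted with limma 3.58.1 in R 4.3.3 on log2(RPKM + 0.1), with group as the only term and a trended prior variance, and p-values were Benjamini-Hochberg adjusted over 23299 genes. A test on simulated data recovered 198 of 200 genes changed 4-fold among 23305, with 18 false calls. The called cell cycle genes changed far less, the largest being *CENPE* at a log2 fold change of 0.48. Recovery at 4-fold therefore does not show how well changes of this smaller size are found. The members and lists were chosen with earlier results of these data known. Genes given by library were up to 6 called members per role with the largest change, the D-type cyclins, *PCNA*, *MCM2*, *CCNE1*, *E2F1*, *MKI67*, *CCNB1*, *CDK1* and *FOXM1*, and from each further list any gene past the study's criteria, up to 3 called genes with the largest change, and *CDKN1A*, *CDKN1B* and *CDKN2A*. Other genes are named only by count or single value. Alternatives were the pseudocount (1, 0.01), the filter, median-ratio scaling, the replicate block, no trend, voom on recovered reads, each library left out, the D-type cyclins counted with the G1/S genes and, added after the data were examined, centring on GC content in 20 bins and adjustment over the genes with a GC value alone. GC content was that of the longest GENCODE 29 transcript. Tables and figures were made with Python 3.11.15, pandas 2.3.3, numpy 2.4.6 and matplotlib 3.10.9.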

Additional observations from a re-analysis of the deposited data

How the results depend on the processing

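The 45 genes kept their side of the threshold in 619 of 675 gene and setting pairs, 45 lost a call and 11 gained one. The fold change turned sign in 26 pairs over 11 genes, all of them uncalled on both sides and within 0.04 of 0 as reported, namely *MCM2*, *MCM4*, *MCM5*, *PCNA*, *POLA1*, *CCNE1*, *E2F1*, *CCND1*, *TOP2A*, *BUB1* and *CDC20*. Of 10 called genes, 2 remained with no trend in the prior variance and 2 with the replicate block. Calls over all genes also fell, from 1310 higher and 1715 lower to 954 and 1301 with no trend and to 564 and 598 with the block. Same-numbered libraries did not deviate together (correlations -0.0263, 0.0302 and -0.00761), so the numbers were not read as pairs. Higher calls among the G1/S genes fell from 3 to 0 and lower calls among G1/S genes and D-type cyclins from 2 to 0 in both of these fits. Higher calls among the G2/M genes went from 5 to 2 in both, to 8 with GC centring and to 8 with median-ratio scaling, and 1 lower call was gained with voom. With 1 library left out, the totals ranged from 2 to 9, with G1/S higher 0 to 2, lower 0 to 2 and G2/M higher 2 to 5. Without control replicate 2 the total was 2, *CENPE* and *CDK1*. Over all genes, the fits with 1 library left out called 501 to 927 higher and 470 to 1015 lower.

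Over all genes, median-ratio scaling called 1696 higher and 1331 lower in place of 1310 and 1715, and among the 45 genes 12 and 2 in place of 8 and 2. The G2/M median moved from 0.08 to 0.11 under it and to 0.10 with GC centring, where the G1/S and D-type medians became 0.0694 and 0.0575, and it ranged from 0.0581 to 0.0852 with 1 library left out. The median of all genes moved from -0.04 to 0.00 with median-ratio scaling and to -0.01 with GC centring. Further replication genes called higher went from 1 to 2 with GC centring, median-ratio scaling or voom, to 0 with no trend or the replicate block, and 0 to 1 with 1 library left out. Those called lower went from 5 to 2 with no filter and to 0 with median-ratio scaling, no trend, the replicate block or any library left out. Further mitotic genes called higher went from 13 to 5 with no trend, 6 with the replicate block and 4 to 10 with 1 library left out. Those called lower went from 2 to 1 with no filter, to 0 with median-ratio scaling, no trend or the replicate block, and 0 to 1 with 1 library left out. The cause of these changes was not tested, except that fits with 1 library left out have fewer samples. With 3 libraries a group, the median 95% interval reached 0.10 to either side of the log2 fold change.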
